A study of Mus musculus with 28 samples.

Results

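Gene expression in the hippocampus of aged mice given human plasma from young donors was compared with that of aged mice given phosphate-buffered saline (PBS), the vehicle. The arrays were chosen by their titles, 7 for young plasma and 7 for PBS, and make up 14 of the 28 arrays of the series. Mice of both groups were of the NSG strain, Jackson Labs stock 005557, with a mean age of 14 months, and their hippocampi were taken after 6 intravenous injections. The other 14 arrays came from like mice given plasma from cord blood or from old donors and enter here only where the plasmas are set against each other. The labels give neither the ages of the young donors nor the number of donors, and no group of this comparison was untreated, young or immune-competent. The time of day at which tissue was taken is not given in the sources used here.

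NSG mice carry the scid mutation and a null allele of the common cytokine receptor gamma chain, so they lack mature T, B and natural killer cells, and human proteins can be given to them repeatedly. The hippocampus is the seat of spatial and episodic memory, and its neurons report recent activity through immediate early genes, which are transcribed within minutes of firing. Almost every cell of the brain also runs a circadian clock. In it, the proteins BMAL1 and CLOCK (or NPAS2) drive the genes of their own repressors, the PER and CRY proteins, and another loop of REV-ERB and ROR receptors controls BMAL1. Feeding, activity and glucocorticoids are among the signals known to shift clock genes.

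The values were deposited log2 intensities. The array medians of the 14 arrays ran from 4.99 to 5.09, and 2 arrays correlated across genes at 0.986 to 0.995. Markers of the labelled tissue were present on every array: Prox1, the identity factor of dentate granule neurons, ran from 8.26 to 9.12 over both groups, and Wfs1 of CA1 pyramidal neurons from 9.74 to 10.13. Of 18 lymphocyte markers, 11 lay under the filter on dim genes, a mean of 4.68 on the log2 scale. The summed level of the choroid plexus markers varied widely in both groups, with list means of 5.84 to 7.64 on PBS arrays and 5.73 to 7.68 on young plasma arrays. Replicates 2, 4, 5 and 7 of PBS and 2, 4 and 7 of young plasma were high.

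Both groups held an array that stood apart. Young plasma replicate 7 had a mean over 20 glucocorticoid-responsive genes of 8.42, against 7.52 to 7.77 on the other young plasma arrays and 7.55 to 7.77 on PBS arrays. PBS replicate 4 had a mean over 24 interferon-response genes of 7.32, against 5.72 to 5.90 on the other PBS arrays. Values without either array are given where it moves a described result by much. Whether every array stands for its own mouse is not stated in the labels, and p-values therefore cover only the spread among these samples, which may be technical.

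No gene passed the test between young plasma and PBS. Of 22256 genes with a symbol, 15781 passed the filter, and 0 of them, or 0%, had an adjusted p under 0.05 in limma; the smallest adjusted p was 0.108, shared by Psmb11 and Mansc1. An unadjusted p under 0.05 was reached by 1764 genes, where 5% of the genes tested would be 789. Of these, 958 were higher with young plasma, 6.07% of the genes tested, and 806 were lower, 5.11%. Their differences were small, with a median size of 0.16 on the log2 scale and a largest of 0.72. The 7 young plasma arrays all lay above the 7 PBS arrays for 26 genes, 0.165% of those tested, and all below for 8 genes, 0.0507%. Whatever its size, the difference was above 0 for 7762 of the 15781 genes and below 0 for 8019. In the authors' deposited table, which gives a p-value per row, 1910 of 23410 rows had an unadjusted p under 0.05, and after Benjamini-Hochberg adjustment 0 rows stayed under 0.05, with a smallest value of 0.280. These shares are the background against which each group of genes is read in what follows, and single genes are described by their differences rather than called.

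**Figure D1:**
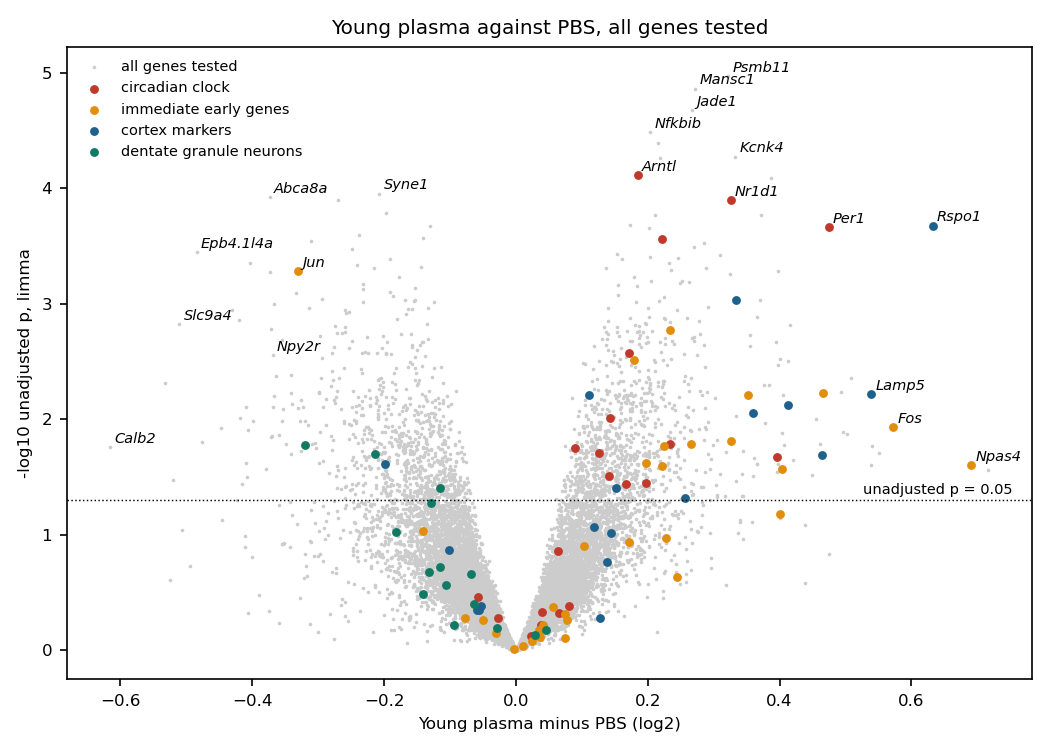
Each point is 1 of the 15781 genes tested, placed by the young plasma minus PBS difference on the log2 scale and by −log10 of the unadjusted limma p; the dotted line marks an unadjusted p of 0.05. Clock genes (red) gather on the right, the cortex marker Rspo1 (blue) at 0.63 and the immediate early gene Npas4 (orange) at 0.69 lie far out on that side, and dentate granule markers (green) lie mostly left of 0.

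Core clock genes and their outputs had the largest share of members on the higher side among the 42 gene lists with at least 5 tested members. Of 22 genes listed, 1 was not matched to a symbol of the data, 21 were tested and 19 had a difference above 0. Per2 was not among the genes tested. An unadjusted p under 0.05 was reached by 13, all higher with young plasma, against 6.07% of all genes. The median difference of the 21 genes was 0.14 on the log2 scale, and that of all genes tested was -0.0018. Averaged over the 21 genes, the young plasma arrays had a level of 8.32 ± 0.08 (SD, n = 7). The PBS arrays had one of 8.17 ± 0.03 (SD, n = 7). The lowest young plasma array, at 8.24, lay just above the highest PBS array, which also rounded to 8.24.

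Among the repressors of the clock, Per1 stood out. Per1 is the PER gene that answers fastest to light, activity and glucocorticoids. Its lowest, median and highest values were 9.29, 9.37 and 10.30 with young plasma and 8.95, 9.05 and 9.15 with PBS. All young plasma arrays lay above all PBS arrays, and the highest was replicate 7. The difference was 0.47 on the log2 scale (SE 0.11), 1.39-fold, with an adjusted p of 0.167 in limma, and it was 0.34 without replicate 7. Cry2, a CRY repressor, had values of 8.71, 8.79 and 9.17 against 8.56, 8.67 and 8.75, so the groups overlapped. It was higher by 0.17 (SE 0.05, adjusted p 0.238 in limma), and by 0.12 without replicate 7, its highest array. Per3 and Cry1 had differences of -0.06 (SE 0.06) and 0.02 (SE 0.07), and of -0.005 and 0.07 without replicate 7, the lowest young plasma array for both. Ciart, which encodes the repressor CHRONO, was at 6.78, 6.91 and 8.52 against 6.59, 6.71 and 6.95. Its difference of 0.40 (SE 0.16) was 0.17 without young plasma replicate 7.

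In the receptor loop, Nr1d1 and its target Arntl had larger differences than the other receptors. Nr1d1 encodes REV-ERB alpha, which represses Bmal1. Its lowest, median and highest values were 9.49, 9.53 and 9.84 with young plasma and 9.08, 9.32 and 9.35 with PBS. The groups did not overlap, and the gap between them was 0.14. The difference was 0.33 (SE 0.07), 1.25-fold, with an adjusted p of 0.154 in limma, and 0.28 without young plasma replicate 7. Nr1d2, the gene of REV-ERB beta, differed by 0.04 (SE 0.07), or 0.08 without that array, and Rora by 0.07 (SE 0.09). Rora, also a thalamus marker, was at 8.43 on PBS replicate 6, with the other PBS arrays at 7.72 to 7.84. The part of PBS replicate 6 in the Rora value was not tested. Arntl, the gene of BMAL1 itself, was at 8.23, 8.27 and 8.48 with young plasma and 8.05, 8.09 and 8.23 with PBS. Its groups were apart by only 0.0002, and the difference was 0.19 (SE 0.04, adjusted p 0.142). Its partner Clock differed by -0.03 (SE 0.04), or 0.001 without young plasma replicate 7. Npas2, which can take the place of CLOCK in the forebrain, was higher by 0.20 (SE 0.09, adjusted p 0.412 in limma).

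Modifiers and outputs of the clock made up the rest. Bhlhe40 and Bhlhe41 encode DEC1 and DEC2, repressors that compete for the same sites as BMAL1. Bhlhe40 was at 9.54, 9.77 and 9.88 against 9.44, 9.49 and 9.58, with 6 of 7 young plasma arrays above the highest PBS array and a difference of 0.22 (SE 0.05, adjusted p 0.179). Bhlhe41 was higher by 0.13 (SE 0.05). Csnk1e, the kinase CK1 epsilon that marks PER proteins for decay, differed by 0.14 (SE 0.05), and Csnk1d by 0.06 (SE 0.04). Of the output transcription factors, Nfil3 differed by 0.23 (SE 0.09), Tef by 0.14 (SE 0.06), Hlf by 0.17 (SE 0.08) and Dbp by 0.08 (SE 0.10). Without young plasma replicate 7, Nfil3 differed by 0.14, Tef by 0.09 and Csnk1d by 0.03, whereas Dbp, lowest on that array at 8.64, differed by 0.18. That array was the highest of its group for 12 of the 21 clock genes and the lowest for 5.

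**Figure D2:**
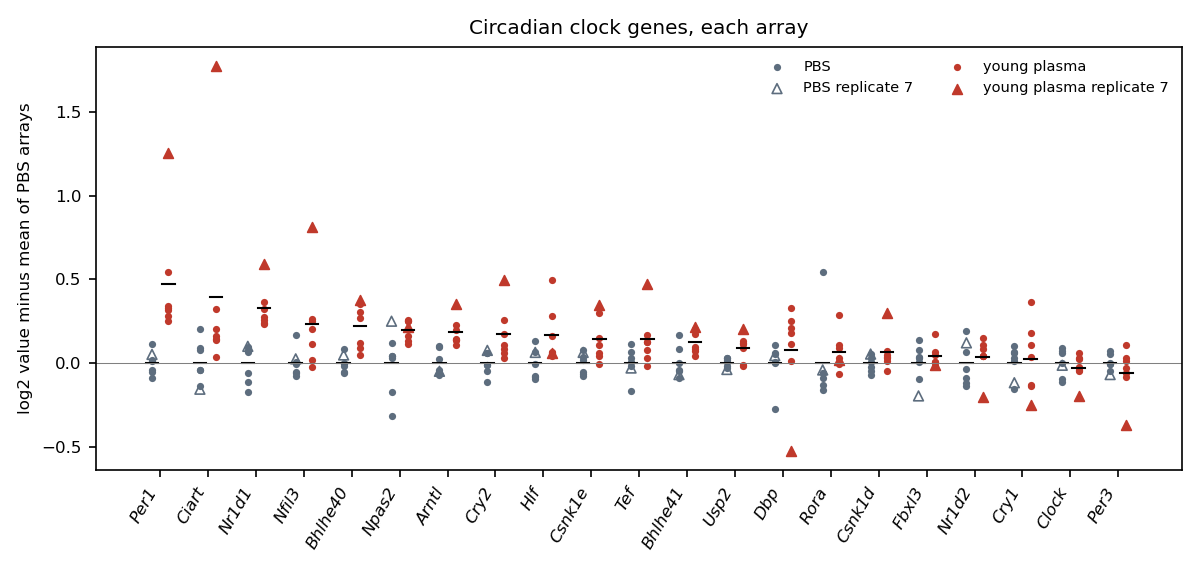
Each point is 1 array's log2 value for a clock gene minus the mean of the 7 PBS arrays; grey marks PBS, red young plasma, triangles replicate 7 of either group, and black bars the group means. The 21 genes are ordered by their difference, from Per1 at 0.47 to Per3 at -0.06, and young plasma replicate 7 is the highest point for Per1, Ciart, Nr1d1 and Nfil3 and the lowest young plasma point for Dbp, Cry1 and Per3.

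The promoters of the 3 clock genes whose groups did not overlap are shown so that the letters searched for clock motifs can be seen. They are the 250 bases before a RefSeq start in GRCm38.p6, written 5′ to 3′ on the gene's strand, with motif matches in capitals. Per1 has 2 listed starts, of which the upstream one is shown, Arntl has 2, of which the first is shown, and Nr1d1 has 1.
Per1, chr11:69098699-69098948, plus strand: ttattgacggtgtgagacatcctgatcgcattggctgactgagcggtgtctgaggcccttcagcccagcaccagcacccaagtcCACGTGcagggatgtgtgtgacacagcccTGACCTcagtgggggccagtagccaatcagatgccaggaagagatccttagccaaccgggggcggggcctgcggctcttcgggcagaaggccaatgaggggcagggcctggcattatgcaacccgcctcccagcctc
Nr1d1, chr11:98775378-98775627, minus strand: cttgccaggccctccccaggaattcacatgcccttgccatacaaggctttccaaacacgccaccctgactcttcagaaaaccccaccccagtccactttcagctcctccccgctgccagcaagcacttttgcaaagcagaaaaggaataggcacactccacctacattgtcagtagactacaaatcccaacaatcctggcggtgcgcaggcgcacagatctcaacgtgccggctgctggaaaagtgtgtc
Arntl, chr7:113207215-113207464, plus strand: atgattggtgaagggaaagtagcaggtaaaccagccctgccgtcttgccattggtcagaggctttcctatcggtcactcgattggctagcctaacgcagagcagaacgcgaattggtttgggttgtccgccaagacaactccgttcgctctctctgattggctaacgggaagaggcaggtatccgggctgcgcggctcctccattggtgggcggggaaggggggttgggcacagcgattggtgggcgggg
The search was for CACGTG (E-box, the site of BMAL1 and its partners), TGACGTCA (cAMP response element), AGGTCA (core of the ROR and REV-ERB element) and TGANTCA (AP-1) on both strands. The Per1 window held an E-box at position -166 from the start and an AGGTCA core, on the other strand, at position -137. The window of the other listed Per1 start, chr11:69099902-69100151, held none of the 4 motifs, and neither did the Nr1d1 window or both Arntl windows. Of 32851 mouse promoter windows of this length, 6.02% held the E-box, 14% the AGGTCA core, 6.75% the AP-1 motif and 1.55% the cAMP response element. These matches are descriptions of letters and not of bound sites. Only these letters within 250 bases were searched, so variant sites and sites outside the windows were not covered.

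The clock difference was also read beside the other measures that moved. Without young plasma replicate 7, 11 of the 21 clock genes were higher at an unadjusted p under 0.05, with a median difference of 0.11. Without that array and PBS replicate 4 there were 10, with a median of 0.10, and with only the 14 arrays of this comparison in the fit there were also 10. With the mean of the cortex markers, described next, as a covariate, 7 were higher and 1 was lower, with a median of 0.09. Per1 then differed by 0.40, Nr1d1 by 0.26 and Arntl by 0.18. The cortex marker mean itself differed between the groups by 0.185, so this covariate can take up part of any group difference, whatever its source. The part of young plasma replicate 7's other deviations in the clock difference was not tested beyond leaving that array out.

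Markers of neocortical neurons were higher on the young plasma arrays, although the labelled tissue was hippocampus. Of 18 tested, 9 had an unadjusted p under 0.05 on the higher side, against 6.07% of all genes, and 1, Crym, on the lower side. Their median difference was 0.14 on the log2 scale. List means were 7.57 to 7.87 with young plasma and 7.41 to 7.63 with PBS, so that the groups overlapped, and PBS replicates 6 and 7 were the high ones of their group. In whole tissue, more cells of a type and more RNA per cell cannot be told apart.

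Rspo1, a secreted amplifier of Wnt signalling, had the largest difference of the list. Its lowest, median and highest values were 6.87, 7.17 and 7.55 with young plasma and 6.38, 6.50 and 6.74 with PBS. The groups did not overlap, and Rspo1 was higher by 0.63 (SE 0.15), 1.55-fold, with an adjusted p of 0.167 in limma. Lamp5, found in upper-layer and neurogliaform neurons, was at 7.91, 8.44 and 8.997 against 7.63, 7.79 and 8.05, a difference of 0.54 (SE 0.18). Cux2, a transcription factor of upper cortical layers, differed by 0.41 (SE 0.14), and Scnn1a, an epithelial sodium channel subunit used to mark the cortical input layer, by 0.33 (SE 0.09). Tle4, a corepressor of deep layers, was on all young plasma arrays above all PBS arrays with a difference of 0.11 (SE 0.04). Crym, a thyroid hormone binding protein, was lower by 0.20 (SE 0.08).

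Markers of dentate granule neurons leaned the other way. Of 15 tested, 13 had a difference below 0, 3 of them at an unadjusted p under 0.05, against 5.11% of all genes. The median was -0.11. Without young plasma replicate 7, 5 were lower and the median was -0.13. Rfx3, a ciliary transcription factor, differed by -0.32 (SE 0.13), and by -0.16 without young plasma replicate 7, where it was at 7.64 against a group median of 8.83. Dock10, a Rac and Cdc42 exchange factor, differed by -0.21 (SE 0.09), and Calb1, the calcium buffer calbindin, by -0.11 (SE 0.05). Prox1 was at 8.26, 8.58 and 8.76 with young plasma and 8.44, 8.72 and 9.12 with PBS, with a difference of -0.18 (SE 0.11). With the cortex covariate, the median of the 15 genes was 0.01, with 2 genes higher and 0 lower at an unadjusted p under 0.05.

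Immediate early genes were the other group of pathway genes with many members on the higher side. All 32 listed were tested, and 26 had a difference above 0. At an unadjusted p under 0.05, 12 were higher, against 6.07% of all genes, and 1 was lower, Jun. Their median difference was 0.14 on the log2 scale. List means were 7.10 to 7.56 with young plasma and 7.04 to 7.27 with PBS, so the groups overlapped, with young plasma replicates 4 and 7 inside the PBS range.

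Fos, the classic reporter of neuronal firing, had a lowest, median and highest value of 5.90, 6.34 and 7.01 with young plasma and 5.65, 5.74 and 6.10 with PBS. Of the 7 young plasma arrays, 5 lay above the highest PBS array. Fos differed by 0.57 (SE 0.21), 1.49-fold, with an adjusted p of 0.322 in limma. Npas4, a neuron-specific factor that adjusts inhibitory synapses after activity, was at 5.24, 6.44 and 7.59 against 4.91, 5.80 and 6.18. Its difference was 0.69 (SE 0.29), and 0.88 without young plasma replicate 7. Egr2 and Fosb, both activity-induced transcription factors, differed by 0.40 (SE 0.17) and 0.33 (SE 0.13). Dusp1, a phosphatase that ends MAP kinase signals, was at 7.47, 7.87 and 8.45 against 7.31, 7.44 and 7.69, with 6 of 7 young plasma arrays above the highest PBS array. Its difference was 0.47 (SE 0.16, adjusted p 0.293).

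Other members showed how unevenly the group behaved. Junb and Jund were higher by 0.35 (SE 0.12) and 0.18 (SE 0.06). Jun, which forms AP-1 with FOS, was at 8.51, 8.75 and 8.90 with young plasma and 8.80, 9.09 and 9.23 with PBS. It was lower by 0.33 (SE 0.08, adjusted p 0.182), with 5 of 7 young plasma arrays below the lowest PBS array. Egr1 differed by 0.40 (SE 0.21) and did not reach an unadjusted p of 0.05. Its difference was 0.59 without young plasma replicate 7, its lowest array at 7.28. Arc, which drives AMPA receptor uptake at synapses, had 4 young plasma arrays above the PBS range and 1 below it. It was at 7.59 on young plasma replicate 7, against a group median of 9.75 and a PBS range of 9.09 to 9.70, and its difference of 0.08 (SE 0.26) was 0.40 without that array. Delayed activity genes, which need new protein before they respond, had a median difference of -0.001. Of 19, 2 were higher at an unadjusted p under 0.05, beside 6.07% of all genes.

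With the cortex marker mean as a covariate, 2 immediate early genes were higher and 1 was lower at an unadjusted p under 0.05, and their median difference was 0.01. Fos then differed by 0.13, Npas4 by 0.20, Egr1 by -0.0038 and Dusp1 by 0.23. Klf2 differed by 0.15 and Dusp5 by 0.22. Because the cortex marker mean itself differed between the groups, a smaller value here does not show where a difference came from. Without PBS replicate 4, whose list mean of 7.04 was the lowest, 9 were higher, and without young plasma replicate 7 there were 13.

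**Figure D3:**
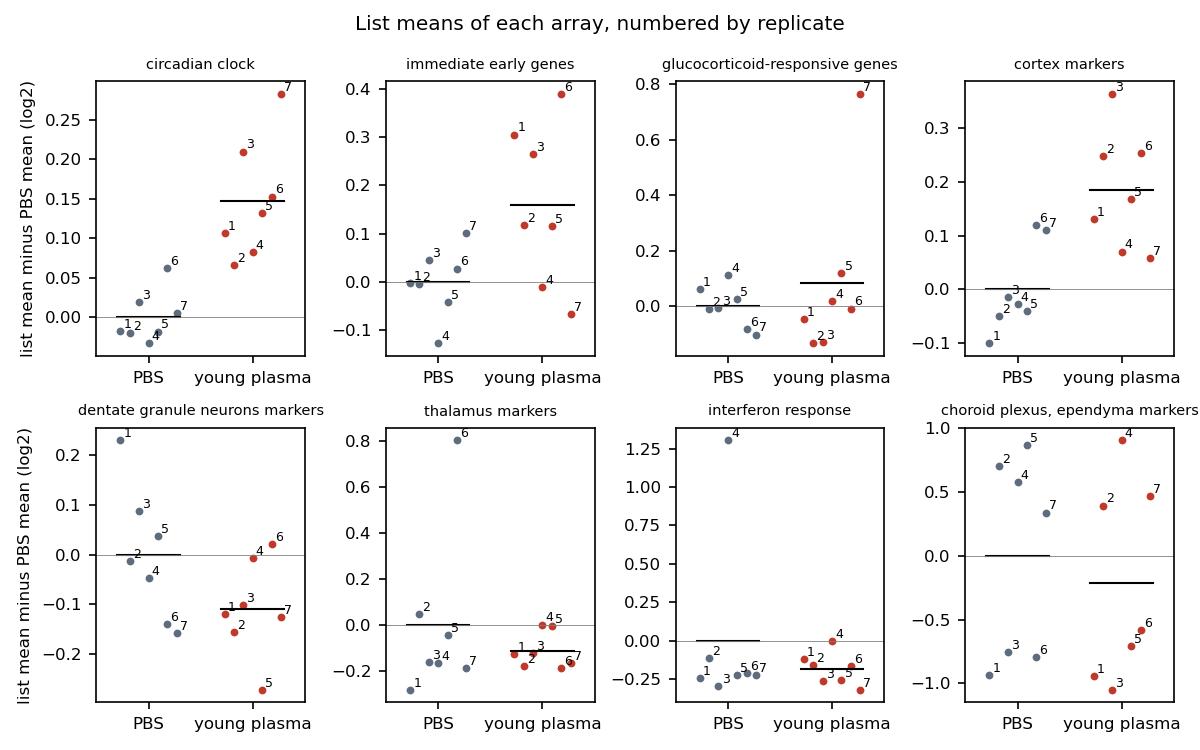
Each panel shows the mean log2 value of a gene list on every array, minus the mean of the 7 PBS arrays, with arrays numbered by replicate and black bars for the group means. Young plasma replicate 7 stands alone in the glucocorticoid panel and PBS replicate 4 in the interferon panel, the choroid plexus panel is spread widely in both groups, and the clock panel has no overlap.

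Few glucocorticoid-responsive genes differed, and their count moved with young plasma replicate 7 and with the cortex covariate. Of 20 tested, 2 were higher at an unadjusted p under 0.05, against 6.07% of all genes, and the median difference was 0.03. Without that array 0 were higher and 2 were lower, with a median of -0.02. The cortex covariate gave 5 higher and 0 lower, with a median of 0.12. Sgk1, a kinase induced by corticosteroids, was at 8.17, 8.61 and 9.52 with young plasma and 7.96, 8.39 and 8.58 with PBS. The highest value was that of replicate 7, although 4 young plasma arrays in all lay above the PBS range, and the difference of 0.34 (SE 0.15) was 0.20 without it. Klf9, a transcription factor downstream of glucocorticoid and thyroid receptors, was at 10.81 on replicate 7, against a PBS range of 9.96 to 10.25. Its difference of 0.18 (SE 0.07) was 0.09 without that array. Cdkn1a, the cell cycle inhibitor p21, was at 10.34 at its highest and 7.33 at its median with young plasma, with a PBS range of 7.01 to 7.79.

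Genes of the presynaptic terminal and of voltage-gated channels were more often higher than lower at an unadjusted p under 0.05. Over all genes tested, 6.07% were higher and 5.11% lower at that threshold. Of 28 presynaptic release genes, 6 were higher and 0 lower at an unadjusted p under 0.05, with a median difference of 0.04. Syn3, a synapsin that tethers synaptic vesicles, was at 7.84, 8.02 and 8.15 with young plasma and 7.57, 7.75 and 7.93 with PBS, a difference of 0.27 (SE 0.08, adjusted p 0.225). The SNARE genes Stx1a and Snap25 differed by 0.28 (SE 0.11) and 0.07 (SE 0.03). With the cortex covariate, 1 gene of this list was higher and 1 lower, with a median of 0.02. Of 29 postsynaptic scaffold and glutamate receptor genes, 0 had an unadjusted p under 0.05 in either direction, and their median was 0.01. The cortex covariate gave 4 higher and 1 lower, without young plasma replicate 7 the counts were 2 and 1, and without PBS replicate 4 they were 0 and 2.

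Among 32 potassium and HCN channel genes, 6 were higher and 0 lower at an unadjusted p under 0.05, beside 6.07% and 5.11% of all genes. Kcnh3, a slow potassium channel of forebrain pyramidal neurons, was at 9.09, 9.20 and 9.56 with young plasma and 8.81, 8.95 and 9.11 with PBS. Of the 7 young plasma arrays, 6 lay above all PBS arrays, and the difference was 0.29 (SE 0.07), with an adjusted p of 0.182 in limma. Kcnj4, an inward rectifier, differed by 0.17 (SE 0.06), and Hcn2, a pacemaker channel, by 0.14 (SE 0.06). Kcnk4, the leak channel TRAAK, which was not on the list, had 6 of 7 young plasma arrays above the PBS range and a difference of 0.33 (SE 0.07, adjusted p 0.123). Without PBS replicate 4 the list had 3 genes higher and 2 lower, and without young plasma replicate 7 it had 10 higher and 1 lower. With the cortex covariate it had 3 higher and 1 lower. Of 26 sodium and calcium channel genes, 4 were higher and 1 lower, but only 14 had a difference above 0, with a median of 0.01. Without young plasma replicate 7 the counts of higher and lower genes were 8 and 1, and with the cortex covariate 2 and 0. Scn4b, a sodium channel beta subunit, differed by 0.40 (SE 0.14), and by 0.22 with the cortex covariate.

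**Figure D4:**
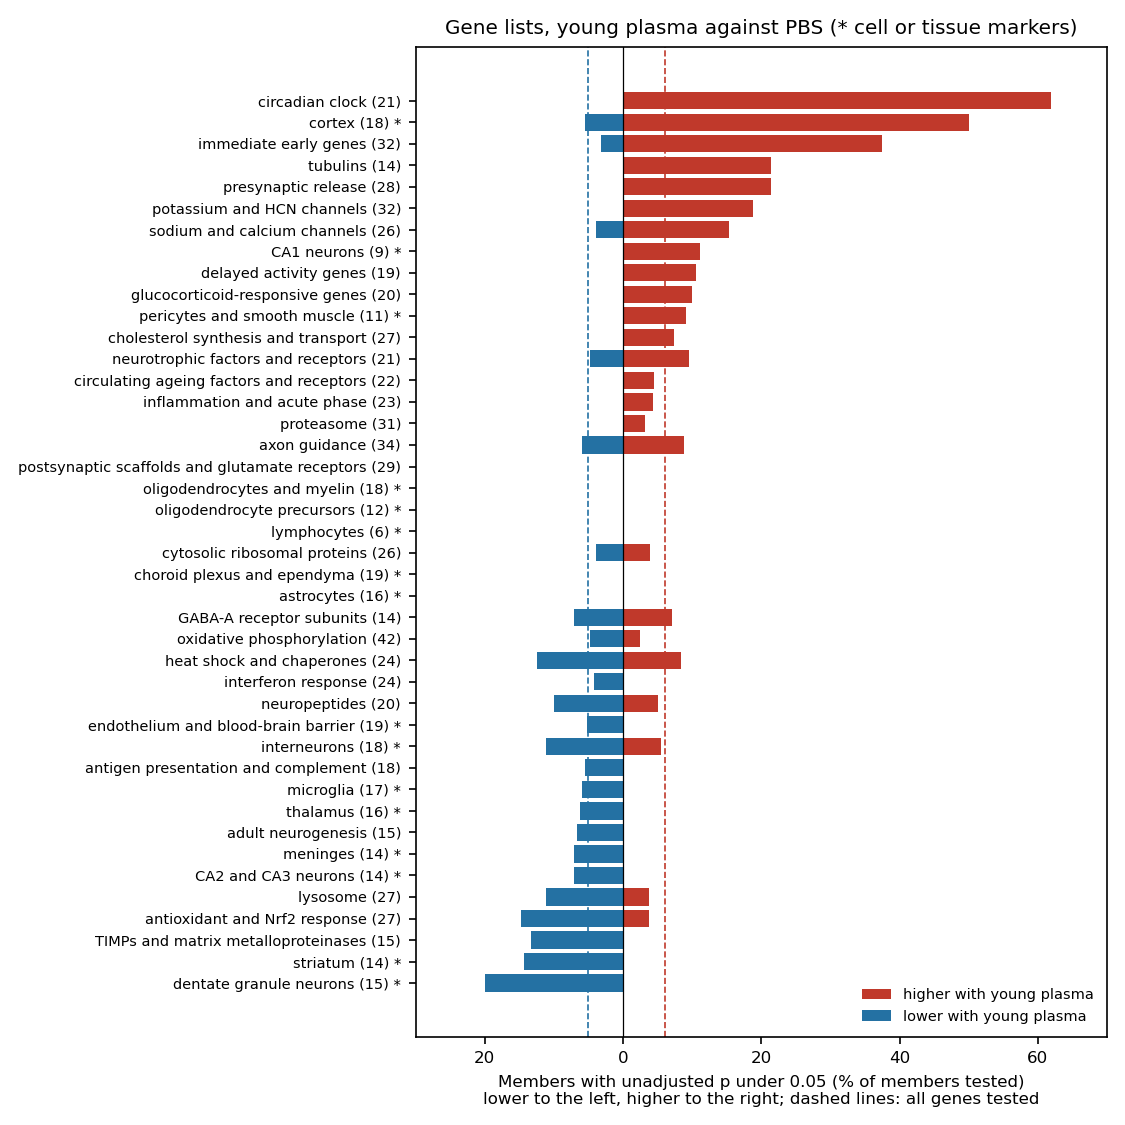
Bars give the share of tested members of each gene list with an unadjusted limma p under 0.05, to the right for higher and to the left for lower with young plasma, for the 42 lists with at least 5 tested members; the number tested is in brackets and stars mark cell or tissue markers. Dashed lines stand at the shares over all genes tested, 6.07% and 5.11%; the clock, cortex and immediate early gene lists reach farthest to the right and dentate granule markers farthest to the left.

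Psmb11, Mansc1 and Jade1 had the smallest p-values of all genes and belonged to none of the groups described so far. Psmb11 encodes the proteasome subunit of thymic epithelial cells. It was at 5.13, 5.22 and 5.49 with young plasma and 4.77, 4.87 and 5.10 with PBS, close to the filter of 4.68. The groups did not overlap, and the difference was 0.32 (SE 0.06), 1.25-fold, with an adjusted p of 0.108 in limma. Of 31 proteasome genes tested, it was the only one with an unadjusted p under 0.05, but without young plasma replicate 7 another 4 were lower. Mansc1, a membrane protein gene, was at 7.03, 7.11 and 7.21 against 6.67, 6.88 and 6.95 and differed by 0.27 (SE 0.05, adjusted p 0.108), again without overlap.

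Several genes of signalling and chromatin lay in the same range. Jade1, a scaffold of histone acetyltransferase complexes, differed by 0.27 (SE 0.05, adjusted p 0.110), with 5 of 7 young plasma arrays above the PBS range. Nfkbib, an inhibitor of NF-kappa-B, was at 7.32, 7.38 and 7.55 against 7.16, 7.21 and 7.26 and differed by 0.20 (SE 0.04) without overlap. Adap1, an ARF6 regulator of neurons, and Zmiz2, a nuclear receptor coactivator, also had groups that did not overlap, with differences of 0.22 (SE 0.04) and 0.17 (SE 0.04). Gfra2, the receptor for the neurotrophic factor neurturin, was at 9.13, 9.23 and 9.51 against 8.64, 8.92 and 9.08. It differed by 0.40 (SE 0.12, adjusted p 0.249) without overlap, and by 0.11 with the cortex covariate. Tuba1b, an alpha-tubulin, differed by 0.37 (SE 0.09). Its groups overlapped, with 1 of 7 young plasma arrays above the PBS range. Of 14 tubulin genes, 3 were higher at an unadjusted p under 0.05, against 6.07% of all genes.

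The 8 genes with all young plasma arrays below all PBS arrays were Cep120, Sec23ip, Rars, Tlr4, Dpf3, Fam3c, Sdhaf2 and Ccnh, named here because they complete that count. Cep120, a centriole protein, was at 8.14, 8.23 and 8.30 with young plasma and 8.31, 8.35 and 8.43 with PBS and was lower by 0.13 (SE 0.03, adjusted p 0.167 in limma). Sec23ip, which acts where vesicles leave the endoplasmic reticulum, was lower by 0.19 (SE 0.05), with 8.05 on young plasma replicate 7 as its lowest value. Tlr4, the endotoxin receptor of innate immune cells, was lower by 0.26 (SE 0.07) at a mean of 4.99, near the filter. Rars, the arginyl-tRNA synthetase, was lower by 0.15 (SE 0.04).

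Other lower genes overlapped between groups. Abca8a, a lipid transporter, was at 4.95, 5.18 and 5.26 with young plasma and 5.19, 5.57 and 5.83 with PBS, a difference of -0.37 (SE 0.08, adjusted p 0.154). Lrrc8e, a subunit of the volume-regulated anion channel, was lower by 0.27 (SE 0.06), while Lrrc8b of the same family was higher by 0.21 (SE 0.05). Syne1, the nuclear envelope protein nesprin-1, was lower by 0.21 (SE 0.05), but 1 other row of this gene had the opposite sign. Trdmt1, a tRNA cytosine methyltransferase, was lower by 0.24 (SE 0.06), and Apip, an enzyme of methionine salvage, by 0.31 (SE 0.07). Epb4.1l4a, a FERM-domain protein, had values of 5.87, 6.12 and 6.57 against 6.18, 6.83 and 6.93, a difference of -0.48 (SE 0.12), which was -0.29 with the cortex covariate.

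Axon guidance genes were described by a few members on either side. The neuropilins Nrp1 and Nrp2, semaphorin and VEGF receptors, were both lower. Nrp1 was at 8.54, 8.80 and 9.12 with young plasma and 8.96, 9.17 and 9.24 with PBS, with a difference of -0.33 (SE 0.09, adjusted p 0.209 in limma). Nrp2 was at 7.94, 8.14 and 8.48 against 8.29, 8.53 and 8.67, with a difference of -0.28 (SE 0.09). With the cortex covariate these were -0.16 and -0.06. Their ligands Sema3a and Sema3c, and the receptor partner Plxnd1, were higher by 0.30 (SE 0.12), 0.17 (SE 0.06) and 0.36 (SE 0.15). In all, 3 of 34 axon guidance genes were higher and 2 lower at an unadjusted p under 0.05, near the 6.07% and 5.11% of all genes. Without young plasma replicate 7 the counts were 3 and 5.

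Of 20 neuropeptide genes, 1 was higher and 2 were lower at an unadjusted p under 0.05, small counts beside the 6.07% and 5.11% of all genes. Npy2r, a presynaptic receptor of neuropeptide Y, was at 7.65, 7.77 and 8.04 with young plasma and 7.91, 8.34 and 8.49 with PBS. Of the 7 young plasma arrays, 4 lay below the PBS range, and the difference of -0.37 (SE 0.11, adjusted p 0.240) was -0.12 with the cortex covariate. Tac1, the precursor of substance P, was lower by 0.30 (SE 0.12) and Vip higher by 0.29 (SE 0.12). Calb2, or calretinin, had the largest lower value of all genes tested, -0.61 (SE 0.24), yet no young plasma array lay below the PBS range. Calb2 is a marker of immature granule cells, of interneurons and of thalamus. The thalamus list mean was 7.78 on PBS replicate 6, against 6.70 to 7.03 on the other PBS arrays. The Calb2 difference was -0.50 without that array and -0.83 without PBS replicate 1, where Calb2 was lowest. The part of thalamic signal in the Calb2 value was not tested beyond leaving PBS replicate 6 out.

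The lean of the interferon-response genes rested on PBS replicate 4. Of 24 interferon-response genes, 22 had a difference below 0, but 1 had an unadjusted p under 0.05, beside 5.11% of all genes lower. The median was -0.19. Without PBS replicate 4 the median was 0.04, with 1 gene higher and 1 lower. B2m, the light chain of MHC class I and a blood factor linked to ageing of the hippocampus, differed by -0.05 (SE 0.11), and by 0.11 without PBS replicate 4, which was at 10.82. C3, the central complement component, was lower by 0.41 (SE 0.18), and by 0.03 with the cortex covariate.

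Glial markers gave few differences. Of 17 microglia markers, 16 had a difference below 0, 1 of them at an unadjusted p under 0.05, near the 5.11% of all genes. Their median was -0.07, and -0.01 without young plasma replicate 7. Aif1, the microglial protein IBA1, differed by -0.01 (SE 0.05), and Gfap, the astrocyte filament protein, by -0.05 (SE 0.06). For astrocytes, oligodendrocytes with their myelin and oligodendrocyte precursors, 0 of 16, 0 of 18 and 0 of 12 markers had an unadjusted p under 0.05 in either direction. Of 19 choroid plexus and ependyma markers, also 0 did, with a median difference of -0.25. That median was -0.11 without PBS replicate 4, -0.33 without young plasma replicate 7 and 0.23 with the cortex covariate, and leaving out either array gave 1 lower marker. Ttr, the thyroid hormone carrier of the choroid plexus, ran from 8.24 to 12.83 with young plasma and from 8.15 to 12.79 with PBS.

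Chaperones and antioxidant enzymes had more members below 0 than above it, with medians near 0. Of 24 chaperone genes, 18 had a difference below 0, with a median of -0.03. At an unadjusted p under 0.05, 2 were higher and 3 lower, small counts beside the 6.07% and 5.11% of all genes. Hspa5, the chaperone BiP of the endoplasmic reticulum, was at 8.29, 8.36 and 8.50 with young plasma and 8.42, 8.57 and 8.64 with PBS, a difference of -0.16 (SE 0.05, adjusted p 0.225). Cct4, a subunit of the cytosolic chaperonin, was lower by 0.11 (SE 0.04), with 6 of 7 young plasma arrays below the PBS range. Of 27 antioxidant genes, 17 had a difference below 0, with a median of -0.006 beside -0.0018 for all genes tested. At that threshold 1 was higher and 4 were lower. Gsr, which regenerates glutathione, was at 8.64, 8.77 and 8.89 against 8.82, 8.93 and 9.02, a difference of -0.16 (SE 0.05, adjusted p 0.214), and the peroxiredoxins Prdx1 and Prdx2 were lower by 0.16 (SE 0.06) and 0.10 (SE 0.04). With the cortex covariate the antioxidant list had 3 higher and 1 lower, and 16 of its 27 genes had a difference above 0. Of 42 genes of oxidative phosphorylation, 1 was higher and 2 were lower, and without young plasma replicate 7 the counts were 0 and 5. Of 26 cytosolic ribosomal protein genes, 1 was higher and 1 lower.

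Counts were small for genes tied to ageing, plasma and neurogenesis in earlier work. Of 15 adult neurogenesis genes, 11 had a difference below 0, 1 of them at an unadjusted p under 0.05, with a median of -0.07. Without young plasma replicate 7 that median was -0.01. Of 22 circulating ageing factors and receptors, 13 were below 0 and 1 was higher at that threshold, with a median of -0.03. The shares over all genes were 6.07% higher and 5.11% lower, and 8019 of 15781 genes had a difference below 0. Timp2, the metalloproteinase inhibitor known from cord plasma, was at 9.61, 9.80 and 10.09 with young plasma and 9.24, 9.94 and 10.12 with PBS, with a difference of -0.07 (SE 0.12). It was -0.17 without PBS replicate 1, which held the lowest value. Gdf11, a growth factor of the TGF-beta family, differed by -0.05 (SE 0.08). Its receptor Acvr1b was at 9.17, 9.29 and 9.50 against 8.95, 9.13 and 9.19 and was higher by 0.20 (SE 0.05, adjusted p 0.167 in limma), with 6 of 7 young plasma arrays above the PBS range. Bdnf, the growth factor of activity-dependent plasticity, differed by -0.0055 (SE 0.07), and Dcx, a marker of newborn neurons, by 0.02 (SE 0.12). These transcripts report what hippocampal cells made and not the human proteins that were injected.

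Young plasma was also set against the other plasmas in the same fit, over the 140 genes named by rule. In limma, 0 of them had an adjusted p under 0.05 against old plasma and 0 against cord plasma; over all genes tested the counts were 1 and 0. The comparisons with PBS share the PBS arrays, so their values are only placed side by side. Per1 differed from PBS by 0.47 with young, 0.15 with cord and 0.18 with old plasma (SE 0.11 each), and young minus cord plasma was 0.32 (SE 0.11, adjusted p 0.672). Nr1d1 differed by 0.33, 0.11 and 0.17 (SE 0.07 each), with a young minus cord difference of 0.22 (SE 0.07, adjusted p 0.672). Clock list means ran from 8.24 to 8.46 with young, 8.09 to 8.32 with cord and 8.19 to 8.37 with old plasma. With PBS they ran from 8.14 to 8.24. Immediate early list means ran from 7.10 to 7.56 with young, 7.23 to 7.57 with cord and 7.09 to 7.58 with old plasma. The PBS range was 7.04 to 7.27. On both lists the 3 plasmas overlapped. Psmb11 differed by 0.32, 0.21 and 0.09 (SE 0.06 each), with a young minus old difference of 0.23 (SE 0.06, adjusted p 0.583). Fos differed by 0.57, 0.67 and 0.33 (SE 0.21 each), and its young minus cord difference was -0.10 (SE 0.21). Adap1, Kcnh3, Tuba1b and Gfra2 had young minus old differences of -0.03 to 0.03, with SE of 0.04 to 0.12.

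**Figure D5:**
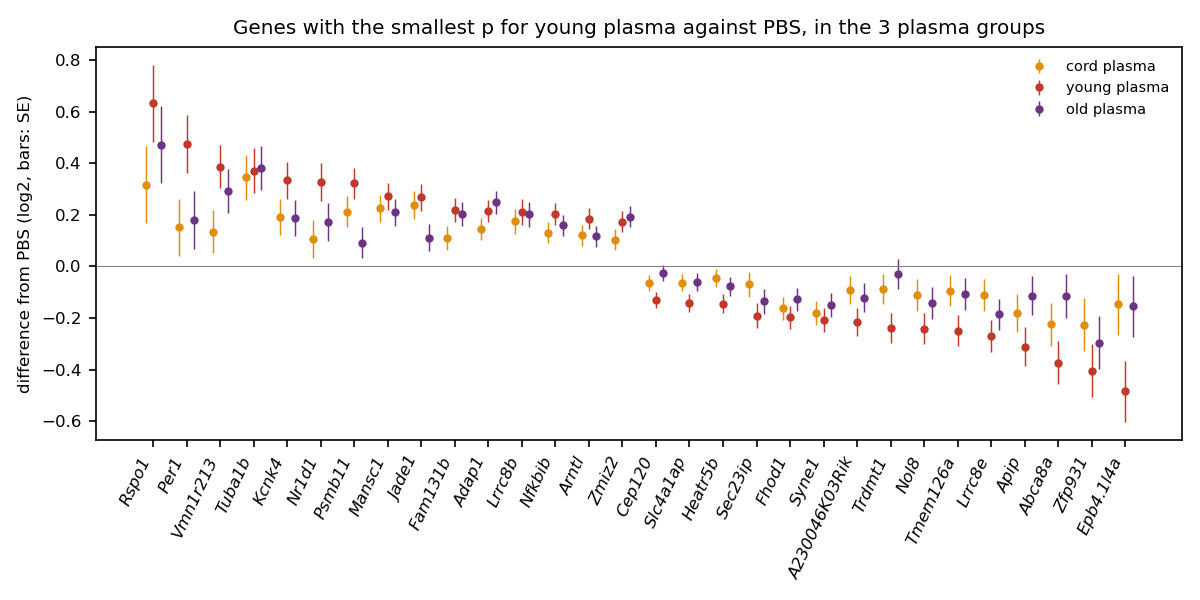
Points give the difference from the 7 PBS arrays on the log2 scale for cord, young and old plasma, 7 arrays each, with bars of 1 SE, for the 15 genes with the smallest unadjusted p for young plasma in each direction. Old plasma lies beside young plasma for Tuba1b and Adap1, and nearer to 0 than young plasma for Psmb11 and Trdmt1; the 3 differences share the PBS arrays.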

How the data were processed

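Biotin-labelled targets were made from hippocampal RNA with a whole-transcript kit and read on Affymetrix arrays, per the labels' protocols. The authors deposited log2 intensities, for which the submitters' processing notes name RMA; its version and the genome build were not given in the sources. RMA equalises the distributions of arrays, which shrinks any shift common to most genes. A table by the authors paired 23410 of 41345 rows with symbols and gave group means, SDs and unadjusted p-values, per the file headers. Means recomputed from the value table matched it within 7.1e-09. Of 22256 symbols, 26 that a spreadsheet had altered were restored, and 20597 were current RefSeq symbols, with 972 synonyms.

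Groups were taken from the titles. Where a gene had several rows, as 898 did, the row with the highest mean was used; the rows of 6 named genes disagreed in sign (Syne1, Adam10, Gja1, C1qb, Sdhd and Dio3os). Genes with a mean under the 30th percentile, 4.68 on the log2 scale, were left out. limma 3.58.1 in R 4.3.3 fitted 1 mean per group over all 28 arrays with eBayes, with Benjamini-Hochberg adjustment over the 15781 genes and 0.05 as the threshold. SE is the moderated standard error, and differences are young plasma minus PBS. The fit was tested on simulated data.

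The comparison and the 45 gene lists, 26 of pathways and 19 of markers, were chosen with earlier results of these data known, so their counts are descriptions and no list was tested. The 140 named genes were the 15 smallest p-values in each direction, the 8 largest differences in each direction at an unadjusted p under 0.01, the 2 smallest p-values of each list, all clock and immediate early genes at an unadjusted p under 0.05, and 11 genes of activity, ageing and glia. The text gives part of them, and some genes that the rule picks are not reported here. Alternatives were the 50th percentile or no percentile as the filter, a gene's mean over its rows, centring on the array median, renewed quantile normalization, a trended and robust fit, array weights, both groups alone, a replicate block, cortex or choroid plexus markers as a covariate, and each array left out. Leaving out young plasma replicate 7 and PBS replicate 4 together was added after the data had been seen. Signal over background, which limits precision on arrays, is not in the files used here.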

Additional observations from a re-analysis of the deposited data

Results flagged for a closer look

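Each named gene and each list mean was checked for a sample far from the other 6 of its group, by Dixon's test at its 0.05 level. Of 368 groups checked, 39 held such a sample, where chance gives about 1 in 20. Young plasma replicate 7 accounted for 19 of them and PBS replicate 4 for 5.

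On young plasma replicate 7, 12 of 21 clock genes had the highest and 5 the lowest value of their group. Of those far from the rest, Per1 was at 10.30, with the next array of its group at 9.58, Nr1d1 at 9.84, Ciart at 8.52, Nfil3 at 7.10 and Tef at 7.47. Dbp, another clock output, was low there, at 8.64, with the next array at 9.18. Klf9 at 10.81 and the mean of the glucocorticoid-responsive genes at 8.42 were high on the same array. Baz1a, a chromatin remodelling subunit, was at 5.21. The activity gene Arc was low there, at 7.59, with the next array at 9.39. Dcx was at 5.43 and Rfx3 at 7.64, both below their group. Aif1 at 5.52, Gja1 at 9.67, Mmp16 at 6.92 and the microglia list mean at 6.78 were also far below their group. This array was the lowest of its group for 10 of 17 microglia, 8 of 16 astrocyte and 7 of 18 oligodendrocyte markers. Sec23ip was at 8.05. The oxidative phosphorylation mean was 9.04 and the proteasome mean 8.44, both high, and the mean of cholesterol synthesis and transport, at 7.80, was low.

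On PBS replicate 4, the interferon-response mean was 7.32, with the next PBS array at 5.90. B2m was at 10.82, C1qb at 8.49, the antigen presentation and complement mean at 6.95 and the inflammation mean at 6.56, all the highest of their group.

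Of the other arrays, 9 held 1 to 3 such values each and 3 held 0. On PBS replicate 1, Timp2 was at 9.24, Nfil3 at 6.46 and the striatum mean at 6.18. Scnn1a was at 6.76 on PBS replicate 2 and Slc4a1ap at 7.53 on PBS replicate 3. PBS replicate 6 had a thalamus mean of 7.78, a presynaptic release mean of 10.00 and Dlgap1 at 10.76. PBS replicate 7 had Acvr1b at 8.94, Cyp46a1 at 9.35 and Nrp1 at 8.95. Among young plasma arrays, replicate 1 had an axon guidance mean of 8.29, replicate 3 Ccdc153 at 6.17, replicate 4 a chaperone mean of 8.44 and replicate 6 Tuba1b at 7.21. No explanation of these values was tested.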

How the results depend on the processing

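The number of genes with an adjusted p under 0.05 was 0 in most of the settings tried. It was 1 with renewed quantile normalization (Mansc1, 0.28) and 1 with a replicate block (Psmb11, 0.32), and 0 to 1 when 1 array was left out, the 1 being Jade1 (0.30) without PBS replicate 6. Deviations from the group means correlated at -0.126 to 0.199 between same-numbered young plasma and PBS arrays. The highest correlation with an array of another number was 0.13 to 0.292. The labels do not say whether the numbers mark a pairing or a batch, and this was not tested further. Genes without overlap numbered 17 above and 17 below after renewed quantile normalization, and 28 to 53 above and 10 to 28 below with arrays left out, where fewer arrays leave less room for overlap by construction. Centring on the array median gave 1052 genes higher and 671 lower at an unadjusted p under 0.05, 61.1% of them higher against 54.3%, and the cortex covariate gave 963 and 596, or 61.8%. Some differences changed sign, most of them near 0. With the mean over rows these were Adam10 (0.085), C1qb (0.035) and Gja1 (0.089). Bdnf was at 0.0015 with quantile normalization, and with array weights Bdnf was at 0.014 and Aif1 at 0.0062. With the cortex covariate they were Aif1 (0.0070), Arc (-0.241), Bdnf (0.044), Dcx (-0.192), Egr1 (-0.0038), Gdf11 (0.053) and Gfap (0.061). With arrays left out, Bdnf ran from -0.039 to 0.041, Aif1 from -0.036 to 0.034, Dcx from -0.042 to 0.121, Arc from -0.055 to 0.397 and B2m from -0.085 to 0.147. The causes were not tested.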
